A study of Drosophila melanogaster with 23 samples.

Results

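A set of 5 genes of methionine and glycine metabolism were examined in whole Drosophila melanogaster. They were Gnmt, Sam-S, CG3999, CG6415 and Cbs, and all 5 were among the 11152 features of the deposited gene table and among the 9698 that passed the filter on low values. The set was chosen by pathway around Gnmt, and it was selected on measured values too, because Gnmt was picked as the gene of the set with the largest rise in warm females and CG3999 as the one with the largest rise in warm males. The temperature changes of Gnmt and CG3999, their differences between the sexes, and the sex difference of those changes use the same libraries and are therefore given as a description without a test. The files gave 23 RNA-seq libraries, each made from a pool of 10 whole virgin flies of the w1118 strain, a white-eyed laboratory stock that all groups shared. Males had 3 libraries at 28 °C, and the other 5 groups of sex and temperature had 4. Flies developed at 24 °C and were moved to their temperature as young adults. They were collected at 45 days of age at 18 and 24 °C and at 35 days at 28 °C, so temperature and age cannot be told apart in any comparison with 28 °C, whereas 24 against 18 °C compared flies of the same age. The study asked which transcripts follow temperature-dependent lifespan, and whether they do so alike in the sexes.

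The methionine cycle makes S-adenosylmethionine, the methyl donor of most methylation reactions. Sam-S encodes the synthetase that makes it from methionine and ATP, and Gnmt encodes glycine N-methyltransferase, which moves its methyl group to glycine to give sarcosine. The homocysteine that is left can be remethylated to methionine or, through cystathionine beta-synthase (Cbs), passed to transsulfuration towards cysteine. Glycine itself can be broken down in mitochondria by the glycine cleavage system, whose P protein (glycine decarboxylase, CG3999) and T protein (aminomethyltransferase, CG6415) release carbon dioxide and load a one-carbon unit on tetrahydrofolate. In Drosophila, Gnmt is known as a strongly fat body-expressed enzyme that limits the accumulation of S-adenosylmethionine. A pool of whole flies mixes all tissues, and a gene of 1 tissue can change in it through the number of those cells or through the RNA per cell, which cannot be told apart here.

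By the BDGP6.54 annotation, which uses dm6 coordinates, Gnmt lies at 3R:12674608-12676084 and CG3999 at 3R:10251518-10255268. Sam-S lies at 2L:106903-114432, CG6415 at 2L:10703621-10704930 and Cbs at X:21045138-21049096, and all 5 are on the plus strand. The last exon of Gnmt shares 75 bases with CG43630 on the opposite strand, and CG6415 lies within Lip2, on the opposite strand, without a shared exon base. The strand used in counting is not given in the sources used here, so reads from those 75 bases could belong to either gene. CG43630 had 39 to 287 counts per library, against 15 to 26 counts of Gnmt in females at 18 °C, the lowest group, and 1122 to 6447 in the libraries at 28 °C. All 115 values of the 5 genes were whole numbers, so no fractional sharing of reads with another gene was visible in them.

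Levels are given as CPM, read counts scaled to a common library size, on library sizes scaled by TMM, a factor that equalises most genes between libraries, and changes as log2 fold changes with their standard error (SE) from edgeR. A change was called at an adjusted p under 0.01. The libraries held between 17727137 and 23194619 counts, with all male totals below all female totals. Over all features, female replicate 1 and male replicate 1 stood apart at 28 °C. The counts of female replicate 1 differed from those of the other 3 libraries of its group with a chi-square per degree of freedom of 52.3 to 73.5, against 13.1 to 34.6 among those 3, and it was the lowest of its group for 39.4% and the highest for 42.3% of all features. Male replicate 1 had 29.9 and 39.4 in its pairs, against 11.6 in the other pair. It was the highest of its group for 4 of the 5 genes and for 3973 of the 9698 features. The cooler male groups also held a library apart, by more than male replicate 1 at 28 °C. Replicate 1 at 24 °C had 67.7 to 110.2 in its pairs, against at most 25.4 in the other pairs. Replicate 3 of the males at 18 °C had 50.85 to 96.7, against at most 19.2. Female replicate 4 at 28 °C was the lowest of its group for 3 of the 5 genes and for 26.9% of all features. The scaling mattered for small changes. The median change of all features in females at 28 against 18 °C was -0.01 on the log2 scale with TMM, -0.15 with DESeq2's size factors and -0.14 with library totals. Without female replicate 1 at 28 °C it was -0.25, with 1626 features called higher and 3943 lower, where all libraries gave 2111 and 1574. Such a shift was not particular to that library. The choice of TMM reference alone moved the Sam-S change in females at 28 against 18 °C between -0.615 and -0.364. The shares of all features called, given below, hold for the main scaling. For males against females at 18 °C the medians were 0.21 with TMM, 0.07 with DESeq2 and 0.04 with library totals. Labels were checked with marker genes: osk, which acts in the oocyte, had at most 1.13 CPM in males and 602 to 1065 CPM in females. The germline gene grk was higher in males than in females at 18 °C, with at least 57.9 CPM against at most 40.6 CPM. Of the 5 testis markers listed, 0 were in the table, and testis content was not analysed here.

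Gnmt was higher at each warmer temperature in both sexes, and in males it was already well expressed in the cold. The male libraries held 37.5, 55.2, 43.5 and 48.9 CPM at 18 °C, 108.2, 114.7, 206.2 and 97.4 CPM at 24 °C, and 228.4, 327.6 and 302.9 CPM at 28 °C. No libraries of different temperatures overlapped, and replicate 3 at 24 °C was nearest to the 28 °C group. The log2 change in males was 2.63 (SE 0.32) at 28 against 18 °C, a 6.19-fold difference of mean CPM, 1.51 (SE 0.30) at 24 against 18 °C and 1.12 (SE 0.31) at 28 against 24 °C.

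In females Gnmt had the steepest temperature profile of the set. Its level in females was 0.617, 1.10, 0.731 and 1.04 CPM at 18 °C, 5.16, 1.91, 6.92 and 6.93 CPM at 24 °C, and 106.2, 152.4, 118.2 and 52.8 CPM at 28 °C. The 3 temperatures did not overlap in females either, and female replicate 4 at 28 °C had about as much Gnmt as the highest male library at 18 °C. The log2 change in females was 6.94 (SE 0.43) at 28 against 18 °C, a 123-fold difference of mean CPM, and it ranked 5 among the 9698 features from the highest. At 24 against 18 °C, with age the same, it was 2.58 (SE 0.45), and at 28 against 24 °C it was 4.36 (SE 0.35). The 18 °C level rested on 15 to 26 counts per library, which limits the precision of these folds. Of the whole log2 change between 18 and 28 °C, 57.4% lay between 18 and 24 °C in males and 37.2% in females.

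The sexes differed most in Gnmt in the cold. At 18 °C males averaged 46.3 ± 7.53 CPM and females 0.872 ± 0.234 CPM (SD, n = 4 each), a log2 difference of 5.72 (SE 0.42). The male-to-female difference was 4.65 (SE 0.36) at 24 °C and 1.41 (SE 0.31) at 28 °C, and the male change less the female change between 18 and 28 °C was -4.31 (SE 0.54) on the log2 scale. In order of mean level, males at 28 °C were followed by males at 24 °C, females at 28 °C, males at 18 °C, females at 24 °C and females at 18 °C. Males at 24 °C and females at 28 °C overlapped, as did females at 28 °C and males at 18 °C. Leaving out any 1 library kept the male change at 28 against 18 °C between 2.52 and 2.77 and the female change between 6.61 and 6.97.

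**Figure D1:**
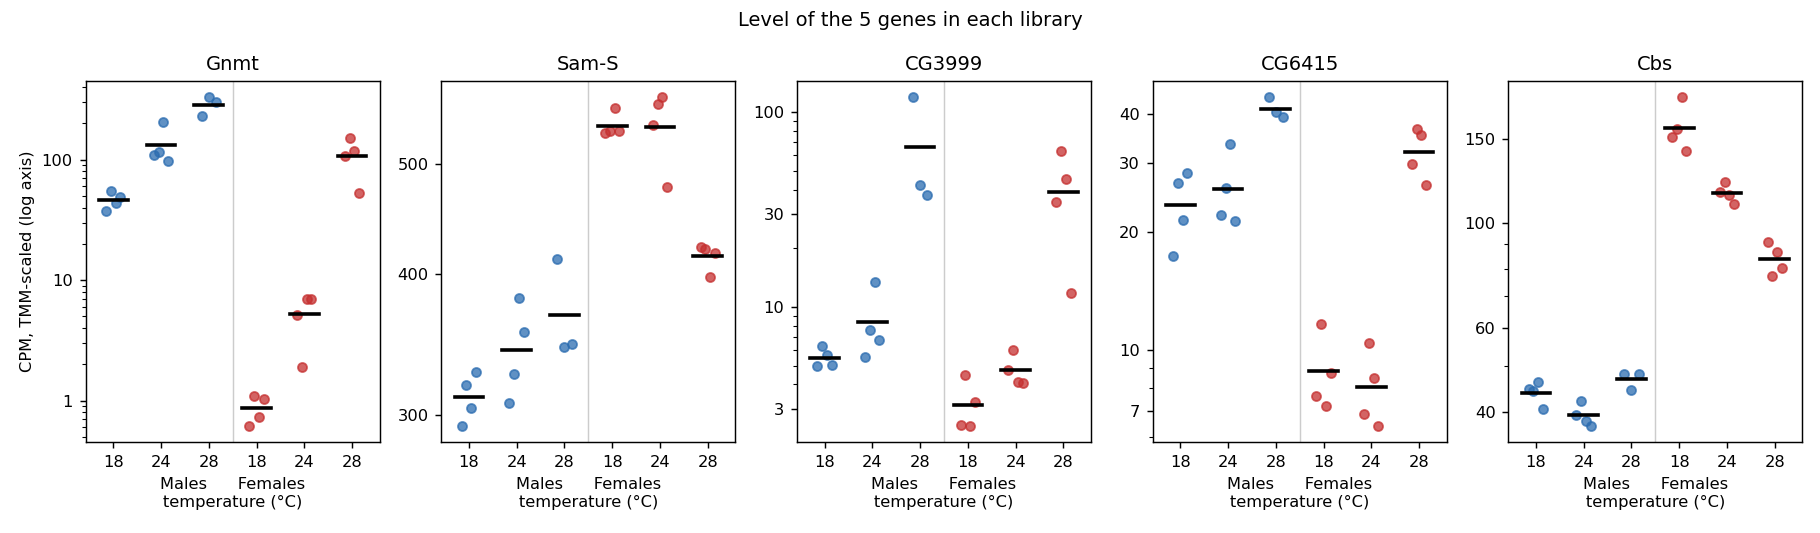
TMM-scaled CPM (log axis, with its own range in each panel) of the 5 genes in each of 23 libraries, by sex and temperature; points are libraries and black lines are group means. Gnmt, CG3999 and CG6415 are higher at 28 °C in both sexes, Sam-S and Cbs are lower at 28 °C in females, and 1 male library at 28 °C stands far above the others for CG3999 (118.9 CPM).

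Sam-S, which supplies the substrate of Gnmt, fell in females and had a small rise in males that was called only with some scalings. In males it was at 293.4, 318.8, 304.1 and 327.1 CPM at 18 °C, 307.4, 326.1, 380.6 and 355.0 CPM at 24 °C, and 412.2, 344.8 and 346.4 CPM at 28 °C. The male groups overlapped at neighbouring temperatures, but every male library at 28 °C was above every male library at 18 °C. In females it was at 532.5, 534.4, 560.3 and 535.3 CPM at 18 °C, 541.7, 565.6, 572.7 and 477.4 CPM at 24 °C, and 422.3, 420.3, 397.0 and 417.4 CPM at 28 °C. Every female library at 28 °C was below every female library at the cooler temperatures.

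The Sam-S change at 28 against 18 °C was 0.24 (SE 0.08, edgeR adjusted p = 0.0175) in males, which did not pass the threshold, and -0.38 (SE 0.07, adjusted p = 0.000206) in females, which did. The male change did pass with DESeq2 (0.30, adjusted p = 0.00046) and with library totals (0.34, adjusted p = 0.00161), and in 7 of the 23 fits that left out 1 library, each of them a female library (0.33 each). The female change was -0.52 with DESeq2 and -0.50 with library totals, and it was called with both. Less the median of all features it was -0.37 with each of the 3 scalings, and the male change was 0.325 to 0.327. That subtraction takes out most of what differs between scalings, so it is not a separate check. Without female replicate 1 at 28 °C the female change was -0.61, in a fit whose median over all features had moved too, and it was still called. The male change was larger than the female change by 0.63 (SE 0.11, adjusted p = 0.000222), or by 0.94 without that female library. At 24 against 18 °C no change was called in males (0.14, adjusted p = 0.218) or in females (-0.00, adjusted p = 0.973). Males were lower than females at 18 °C by a log2 difference of -0.80 (SE 0.07, adjusted p = 1.78e-09) and at 24 °C by -0.66 (SE 0.07, adjusted p = 5.79e-08). At 28 °C the difference of -0.17 (SE 0.08, adjusted p = 0.0553) was not called. Without male replicate 1 at 28 °C it was -0.26 and was called.

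The order of Gnmt and Sam-S by mean level per kilobase of exon differed between groups. In males Gnmt was at 46.7, 133.0 and 289.2 CPM per kilobase at 18, 24 and 28 °C, and Sam-S at 87.3, 96.2 and 103.4. In females Gnmt was at 0.880, 5.29 and 108.5 CPM per kilobase, and Sam-S at 151.9, 151.5 and 116.4. Gnmt thus had the higher mean level per kilobase of the pair in males at 24 and 28 °C and the lower one in the other 4 groups. In females at 28 °C that order rested on replicate 4, with 53.3 CPM per kilobase of Gnmt and 117.3 of Sam-S, and Gnmt was the higher of the pair in replicates 2 and 3.

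The other 5 genes of the methionine cycle list were Ahcy, AhcyL1, AhcyL2, CG10621 and CG10623. Of these, 2 rose and 0 fell in males at 28 against 18 °C, where 10.5% of all features rose and 19.5% fell. In females 3 rose and 1 fell, where 21.8% of all features rose and 16.2% fell. Ahcy, which hydrolyses the S-adenosylhomocysteine that Gnmt produces, rose in males and fell in females. In males it was at 330.2, 224.6 and 201.6 CPM at 28 °C, against 138.4, 146.1, 133.0 and 135.7 CPM at 18 °C. In females it was at 387.5, 365.1, 361.8 and 353.4 CPM at 28 °C, against 490.8, 509.8, 611.0 and 459.0 CPM at 18 °C. Neither sex overlapped between those temperatures. The change was 0.87 (SE 0.12, edgeR adjusted p = 1.35e-05) in males and -0.50 (SE 0.11, adjusted p = 0.00105) in females, and the sexes differed by 1.36 (adjusted p = 7.92e-06).

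CG10621, annotated as a homocysteine S-methyltransferase, was the steepest riser of these 5 in females. It was at 138.3, 189.1, 203.8 and 145.2 CPM in females at 28 °C, against 17.6, 27.2, 19.1 and 26.7 CPM at 18 °C. The change was 1.33 (SE 0.23, edgeR adjusted p = 0.000116) in males and 2.90 (SE 0.23, adjusted p = 4e-09) in females. Its neighbour CG10623, of the same annotation, had 33.2 to 42.4 CPM in females at 28 °C and 23.9 to 36.8 CPM at 18 °C. That change of 0.39 (adjusted p = 0.00374) was called in the main scaling but not with DESeq2 or library totals. The pair lies side by side, and reads shared by near copies could have been assigned to either. The values of both were whole numbers in every library, so no fractional sharing of reads was visible.

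Cbs was female-biased and fell with temperature in females. In males it was at 44.8, 44.3, 46.2 and 40.6 CPM at 18 °C, 39.4, 42.3, 38.4 and 37.4 CPM at 24 °C, and 48.2, 44.5 and 48.1 CPM at 28 °C. The male groups at 18 and 28 °C overlapped. In females it was at 151.0, 157.1, 183.1 and 141.1 CPM at 18 °C, 116.0, 121.6, 114.5 and 109.5 CPM at 24 °C, and 91.0, 77.1, 86.9 and 80.1 CPM at 28 °C, with no overlap between temperatures. The change at 28 against 18 °C was 0.09 (SE 0.08, edgeR adjusted p = 0.367) in males and -0.92 (SE 0.07, adjusted p = 5.86e-09) in females. The difference between the changes was 1.01 (SE 0.11, adjusted p = 2.99e-06). Without female replicate 1 at 28 °C the female change was -1.18 and that difference 1.35, and both were called. The fall in females was also called between flies of the same age, at -0.45 (SE 0.07, adjusted p = 0.00014) for 24 against 18 °C.

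Cbs was lower in males than in females at every temperature. The log2 difference was -1.85 (SE 0.08, edgeR adjusted p = 3.18e-15) at 18 °C, -1.55 (SE 0.08, adjusted p = 7.79e-14) at 24 °C and -0.84 (SE 0.08, adjusted p = 6.01e-09) at 28 °C. The ovary is a large share of a female fly. The summed CPM of 5 ovary germline markers was 1144 to 1597 in females at 28 °C (median 1243), against 1534 to 1757 in females at 18 °C (median 1649), and these ranges overlapped. At 24 °C the median in females was 1419. Of these markers, osk was at 602 to 839 CPM in females at 28 °C and 930 to 1065 CPM at 18 °C, and grk at 20.8 to 22.5 CPM and at least 33.98 CPM. The ranges of nos (253 to 372 and 286 to 328 CPM), bcd (104 to 144 and 107 to 130 CPM) and vas (162.1 to 220 and 172 to 200 CPM) overlapped between 28 and 18 °C. The part of the ovary in the changes of Cbs and Sam-S was not tested. Eip55E encodes cystathionine gamma-lyase, the enzyme after Cbs. It was at 141.3 to 148.9 CPM in males at 28 °C and 88.4 to 99.4 CPM at 18 °C, and at 118.0 to 129.2 CPM in females at 28 °C and 135.1 to 171.2 CPM at 18 °C. It rose in males by 0.65 (adjusted p = 4.54e-06) and fell by 0.27 (adjusted p = 0.00561) in females on the log2 scale, and the changes differed by 0.93 (adjusted p = 7.92e-06). The female call was lost without female replicate 3 at 18 °C (-0.21) or at 28 °C (-0.28).

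CG3999, the glycine decarboxylase of the set, was low until 28 °C in both sexes. In males it was at 4.98, 6.30, 5.66 and 5.04 CPM at 18 °C, 5.53, 7.65, 13.5 and 6.77 CPM at 24 °C, and 118.9, 42.2 and 37.6 CPM at 28 °C. In females it was at 2.47, 4.45, 2.45 and 3.24 CPM at 18 °C, 4.74, 6.00, 4.11 and 4.05 CPM at 24 °C, and 34.7, 63.2, 45.6 and 11.7 CPM at 28 °C. No library at 28 °C overlapped the cooler libraries of its sex, and male replicate 1 at 28 °C was far above and female replicate 4 far below the rest of their groups.

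The log2 change of CG3999 at 28 against 18 °C was 3.59 (SE 0.45) in males, rank 3 of all features from the highest, and 3.62 (SE 0.44) in females, rank 34. At 24 against 18 °C the changes were 0.61 (SE 0.44) and 0.58 (SE 0.45), and 16.1% of the whole female change lay below 24 °C. The higher mean of warm males than of warm females rested on 1 library. Without male replicate 1 at 28 °C the male change was 2.86, and the male-to-female log2 difference at 28 °C was 0.04 where it was 0.77 (SE 0.40) with all libraries. Leaving out both this library and female replicate 4 at 28 °C gave 2.94 for the male change and -0.23 for that difference. At 18 °C males averaged 5.50 ± 0.618 CPM and females 3.15 ± 0.939 CPM (SD, n = 4 each), a log2 difference of 0.80 (SE 0.46).

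CG6415, the T protein of the same system, rose in both sexes. It was at 17.4, 26.7, 21.4 and 28.3 CPM in males at 18 °C, 22.1, 25.9, 33.6 and 21.4 CPM at 24 °C, and 44.1, 40.5 and 39.5 CPM at 28 °C. In females it was at 7.65, 11.7, 7.18 and 8.75 CPM at 18 °C, 6.86, 10.4, 8.49 and 6.41 CPM at 24 °C, and 29.9, 36.8, 35.4 and 26.4 CPM at 28 °C. The groups at 28 °C were clear of the cooler ones in both sexes, and the 18 and 24 °C groups overlapped.

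The change of CG6415 at 28 against 18 °C was 0.82 (SE 0.19, edgeR adjusted p = 0.00187) in males and 1.86 (SE 0.19, adjusted p = 1.03e-07) in females. At 24 against 18 °C it was 0.14 (adjusted p = 0.651) in males and -0.13 (adjusted p = 0.589) in females. Males were higher by 1.41 (SE 0.19, adjusted p = 5.14e-07) at 18 °C and by 1.68 (SE 0.19, adjusted p = 6.33e-08) at 24 °C, and the difference of 0.36 (SE 0.19, adjusted p = 0.087) at 28 °C was not called. The male change less the female change was -1.05 on the log2 scale (SE 0.27, adjusted p = 0.00563). That call was lost with library totals (-0.83, adjusted p = 0.018), and it passed in 10 of the 23 fits that left out 1 library, with values between -1.16 and -0.71. It was lost without male replicates 2 (-0.98) or 4 (-0.94) at 18 °C, male replicates 2 (-1.03) or 3 (-1.01) at 28 °C, female replicates 1 (-0.71), 3 (-0.96) or 4 (-0.77) at 18 °C, female replicates 1 (-0.77) or 4 (-0.76) at 24 °C, and any 1 of the 4 female libraries at 28 °C (-0.99 to -0.78).

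The other proteins of the glycine cleavage system moved less. The H protein gene ppl was at 82.9, 96.8, 87.5 and 74.3 CPM in females at 28 °C, against 42.1, 48.7, 46.3 and 47.2 CPM at 18 °C, a change of 0.89 (SE 0.12, edgeR adjusted p = 2.2e-06). In males its change was 0.12 (adjusted p = 0.453). CG7430, the dihydrolipoyl dehydrogenase that other mitochondrial complexes share, was not called in males (-0.15, adjusted p = 0.14) or females (0.08, adjusted p = 0.433). By level per kilobase, CG3999 was at 20.7 CPM and CG6415 at 33.0 CPM in males at 28 °C, against 1.72 and 18.7 CPM at 18 °C. In females the values were 12.1 and 25.6 CPM at 28 °C, against 0.986 and 7.03 CPM at 18 °C.

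Over the 5 genes, 3 were called higher and 0 lower in males at 28 against 18 °C, in which 10.5% of all features were called higher and 19.5% lower. In females 3 were called higher and 2 lower, with 21.8% and 16.2% of all features. At 24 against 18 °C, 1 was higher and 0 lower in males (1.79% and 1.88% of all features), and 1 was higher and 1 lower in females (15.8% and 8.70%). At 28 against 24 °C, 1 was higher and 0 lower in males (3.95% and 7.46%), and 3 were higher and 2 lower in females (12.1% and 15.5%). Between males and females, 2 were higher and 2 lower at 18 °C (46.6% and 36.0%), 2 and 2 at 24 °C (39.8% and 34.4%), and 1 and 1 at 28 °C (35.1% and 36.6%). The male change between 18 and 28 °C was called above the female change for 2 genes and below it for 2 (6.11% and 13.8% of all features). These counts include Gnmt and CG3999, whose values were used in choosing the genes, so for them a call is no test. In males at 28 against 18 °C, CG6415 was the only other gene called. In males the 1 gene higher at 24 against 18 °C was Gnmt, and the 1 at 28 against 24 °C was CG3999. All these comparisons share libraries with those used in choosing the genes, and the counts are a description.

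**Figure D2:**
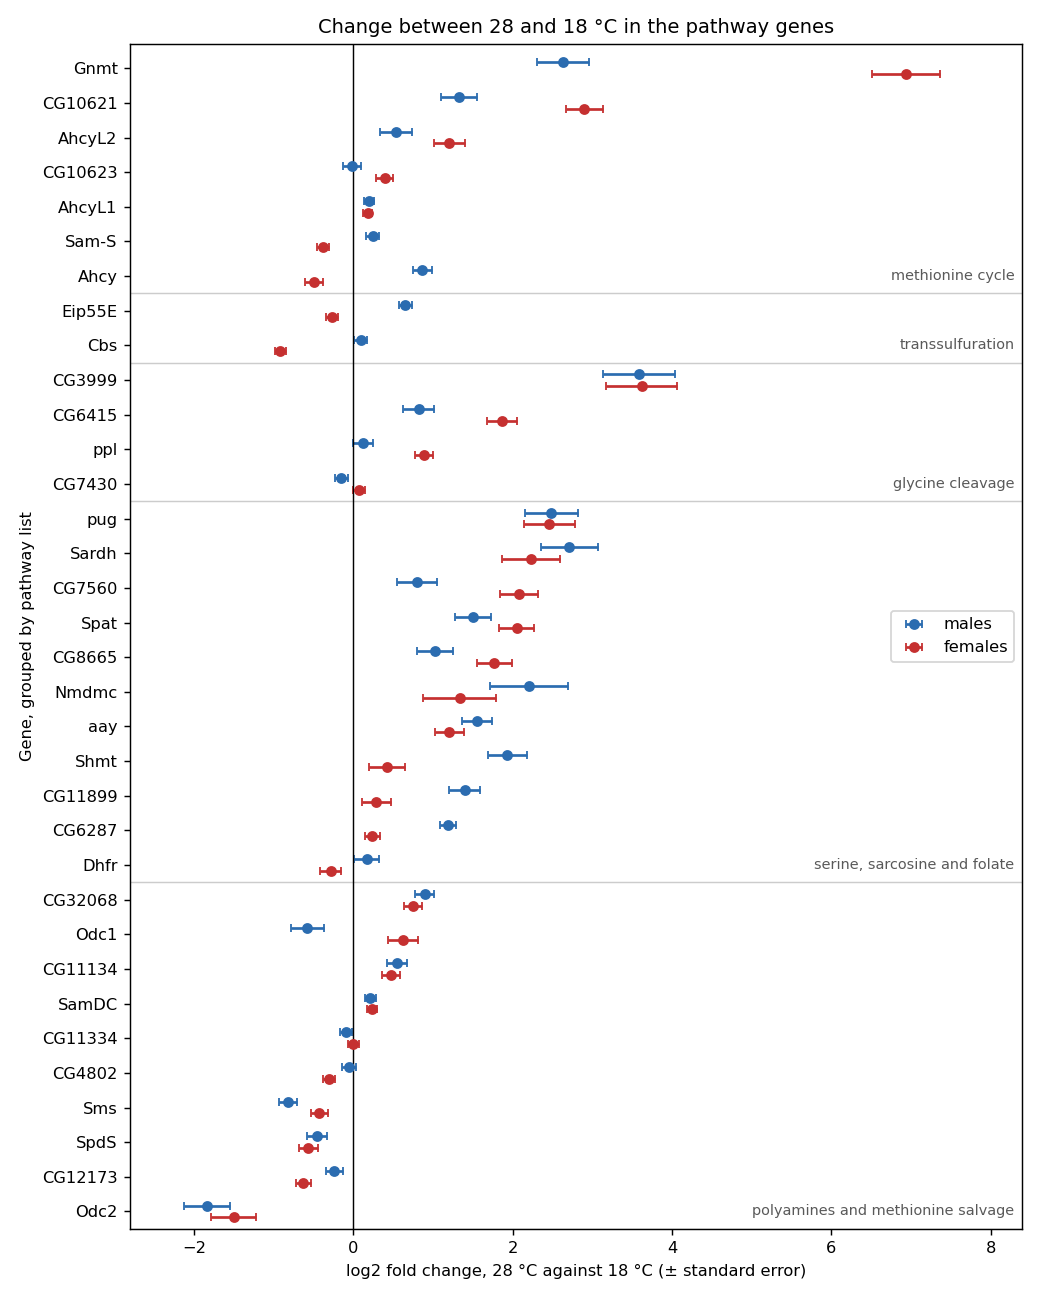
Log2 fold change between 28 and 18 °C (horizontal axis, with standard error bars) of 34 pathway genes in 5 lists, males in blue and females in red. Gnmt in females (6.94) lies far from every other value, CG3999 (3.59 in males and 3.62 in females) and most folate and sarcosine genes lie to the right of 0 in both sexes, and Ahcy, Eip55E and Sam-S lie on opposite sides of 0 in the sexes.

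The 5 genes were set beside 29 others of their pathways. Of those 29, 14 rose and 3 fell in males at 28 against 18 °C, with a median log2 change of 0.55 beside -0.08 for all features, of which 10.5% rose and 19.5% fell. In females 13 rose and 7 fell, with a median of 0.39 beside -0.01, where 21.8% of all features rose and 16.2% fell. At 24 against 18 °C the counts were 1 higher and 0 lower in males (1.79% and 1.88% of all features) and 3 higher and 3 lower in females (15.8% and 8.70%).

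Of the 11 genes of the serine, sarcosine and folate list, 9 rose in males and 6 in females, and 0 fell in either sex, beside 10.5% and 21.8% of all features that rose. Sardh encodes sarcosine dehydrogenase, which returns the sarcosine made by Gnmt to glycine. It was at 74.5, 24.5 and 17.1 CPM in males at 28 °C, against 3.75, 5.36, 7.95 and 6.46 CPM at 18 °C. In females it was at 10.5, 12.4, 11.6 and 7.43 CPM at 28 °C, against 2.06, 2.84, 1.94 and 2.12 CPM at 18 °C. The groups did not overlap in either sex. The change was 2.71 (SE 0.36, edgeR adjusted p = 7.42e-06) in males and 2.23 (SE 0.37, adjusted p = 3.86e-05) in females. Without male replicate 1 at 28 °C the male change was 1.82 and was still called.

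The cytosolic folate enzyme pug rose by 2.49 (SE 0.34, edgeR adjusted p = 8.92e-06) in males and by 2.46 (SE 0.32, adjusted p = 2.78e-06) in females on the log2 scale. Its male libraries at 28 °C held 1143, 346.7 and 293.8 CPM, against 76.5, 108.4, 116.6 and 122.7 CPM at 18 °C, so replicate 1 carried a large part of the mean, and without it the male change was 1.59. The exons of pug share 156 bases with CG14683 on the same strand, so some reads could belong to either. Spat, which transfers amino groups to glyoxylate or pyruvate, rose by 1.50 (adjusted p = 2.37e-05) in males and 2.05 (adjusted p = 1.66e-07) in females. The phosphoserine phosphatase aay, the last step of serine synthesis, rose by 1.55 (adjusted p = 3.26e-06) in males and 1.21 (adjusted p = 1.15e-05) in females. The formyltetrahydrofolate dehydrogenase CG8665 rose by 1.03 (adjusted p = 0.00113) in males and 1.77 (adjusted p = 1.6e-06) in females.

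Other genes of the same list passed the test in males but not in females. Shmt, which interconverts serine and glycine, was at 462.5, 222.4 and 216.7 CPM in males at 28 °C, against 71.5, 83.1, 84.4 and 75.5 CPM at 18 °C. In females it was at 237.7, 291.0, 269.2 and 124.3 CPM at 28 °C, against 158.3, 178.2, 195.5 and 156.1 CPM at 18 °C, and the female groups overlapped. The change was 1.93 (SE 0.25, edgeR adjusted p = 5.34e-06) in males and 0.42 (SE 0.23, adjusted p = 0.131) in females. The difference of 1.51 between the changes (adjusted p = 0.00189) was lost without male replicate 1 at 28 °C, at 1.06. CG6287 and CG11899, the first steps of serine synthesis, rose in males by 1.19 (adjusted p = 4.02e-08) and 1.40 (adjusted p = 1.44e-05). Their changes in females were 0.24 (adjusted p = 0.0372) and 0.29 (adjusted p = 0.198). The changes of the sexes differed for CG6287 by 0.95 (adjusted p = 3.74e-05) and for CG11899 by 1.11 (adjusted p = 0.00358), and the CG11899 difference was 0.82 and not called without male replicate 1 at 28 °C. Nmdmc, a mitochondrial methylenetetrahydrofolate dehydrogenase, rose in males by 2.21 (adjusted p = 0.00116), and this call too was lost without that library, at 1.10. Its change did not differ past the threshold between the sexes (0.87, adjusted p = 0.319). The methylenetetrahydrofolate reductase CG7560 had a male change of 0.80 (adjusted p = 0.0135) and rose by 2.08 (adjusted p = 4.9e-07) in females.

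**Figure D3:**
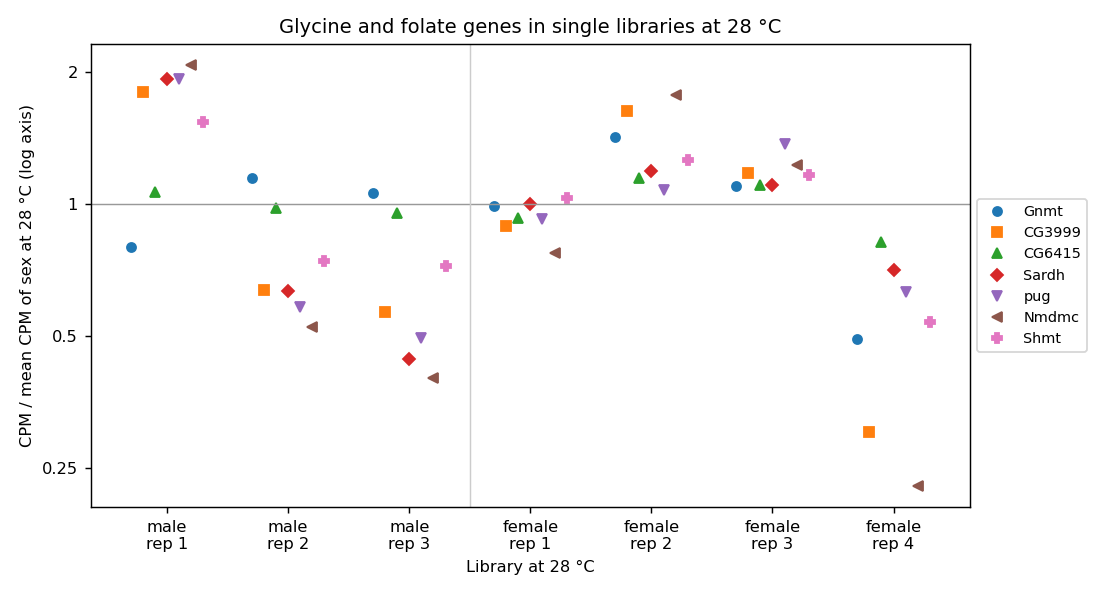
CPM of 7 glycine and folate genes in each of the 7 libraries at 28 °C, divided by the mean CPM of the same sex at 28 °C (log axis; points are libraries, spread sideways for legibility, and the grey line marks the mean). Male replicate 1 is high for CG3999, Sardh, pug, Nmdmc and Shmt (1.54 to 2.07) and low for Gnmt (0.798), and female replicate 4 is below its mean for all 7 genes.

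The libraries at 28 °C that were highest in males and lowest in females for CG3999 were compared with the mean of their sex. Male replicate 1 had 1.80 times the male mean of CG3999, 1.92 times that of Sardh, 1.92 times that of pug and 2.07 times that of Nmdmc, but 0.798 times that of Gnmt. Female replicate 4 had 0.302 times the female mean of CG3999, 0.228 times that of Nmdmc and 0.492 times that of Gnmt. Not all genes of the list followed: CG7560 was at 0.815 and CG8665 at 0.932 times the male mean in male replicate 1, and Spat, CG7560 and CG8665 were at 1.03, 1.04 and 1.17 times the female mean in female replicate 4. Of the 11 genes, 8 were above and 3 below their mean in male replicate 1, and 4 were above and 7 below in female replicate 4. That female library was the lowest of its group for 16 of the 34 pathway genes (47.1%) and for 26.9% of all features. Male replicate 1 was the highest for 17 of the 34 (50.0%) and for 3973 of the 9698 features.

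Polyamine synthesis uses S-adenosylmethionine in another way, and methionine salvage recovers its sulfur. Of the 10 genes of these pathways, 2 rose and 3 fell in males, where 10.5% of all features rose and 19.5% fell, and 3 rose and 5 fell in females, where 21.8% rose and 16.2% fell. Odc2, an ornithine decarboxylase, was at 0.952, 1.59, 0.806 and 1.55 CPM in females at 28 °C, against 3.82, 3.64, 3.70 and 2.74 CPM at 18 °C, with no overlap. It fell by 1.84 (edgeR adjusted p = 3.89e-05) in males and fell by 1.50 (adjusted p = 0.000182) in females. Its neighbour and relative Odc1, which could share reads with it, had changes of -0.58 (adjusted p = 0.0289) in males and 0.62 (adjusted p = 0.0104) in females. The values of Odc1 and Odc2 were whole numbers in every library, so no fractional sharing of reads was visible. The spermine synthase Sms fell by 0.82 (adjusted p = 1.25e-05) in males and fell by 0.43 (adjusted p = 0.00164) in females. CG32068, the acireductone dioxygenase of methionine salvage, rose by 0.90 (adjusted p = 8.46e-06) in males and 0.74 (adjusted p = 1.58e-05) in females.

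Among all tested features, the 5 whose log2 CPM correlated most closely with Gnmt over the 23 libraries, after the mean of each sex was removed, were CG14245 (Pearson's r = 0.970), CG16727 (0.967), CG1544 (0.962), CCHa2 (0.961) and CG6503 (0.957). For CG3999 they were pug (0.972), Prat2 (0.967), ade5 (0.965), CG9547 (0.961) and Sardh (0.960). With Gnmt, the correlation was 0.851 for CG3999, 0.888 for CG6415, -0.531 for Sam-S and -0.809 for Cbs. These values describe libraries that share temperature groups and scaling, and they are given without a test.

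The sum of the fat body markers was higher at 28 than at 18 °C in females, without overlap. In males the sums overlapped, although Lsp2, fat-spondin and Apoltp did not. The summed CPM of the 5 fat body markers in the table, of 6 listed, was 1696 to 2200 in males at 28 °C (median 2156) and 1200 to 1836 at 18 °C (median 1611). In females it was 3104 to 5110 at 28 °C (median 4064) and 726 to 1222 at 18 °C (median 873.4). Lsp2, a larval serum protein made by the fat body, was at 1353, 2056, 2327 and 344.1 CPM in females at 28 °C, against at most 0.617 CPM in females at 18 °C. The lowest of these values was in female replicate 4, the library with the least Gnmt and CG3999 at 28 °C. The other fat body markers did not share this order. Among the females at 28 °C, fat-spondin was highest in replicate 4, and apolpp, Apoltp and NLaz were neither highest nor lowest in it. The marker apolpp was at 1908 to 2708 CPM in females at 28 °C and 561.1 to 1006 CPM at 18 °C. In males apolpp overlapped, at 964 to 1622 CPM at 28 °C and 855 to 1420 CPM at 18 °C. NLaz overlapped in both sexes, at 180 to 230 and 190 to 206 CPM in males and 63.4 to 114 and 64.2 to 88.1 CPM in females. Uro, which marks the Malpighian tubule, was at 195.8 to 308.9 CPM in males at 28 °C and 41.7 to 114.5 CPM at 18 °C, and at 253.4 to 356.9 CPM in females at 28 °C and 28.1 to 49.0 CPM at 18 °C. CapaR, the other marker of that organ, was at 6.72 to 9.02 and 5.47 to 8.42 CPM in males, which overlapped, and at 4.28 to 6.85 and 2.30 to 3.77 CPM in females. The summed CPM of the 4 gut markers in the table, of 5 listed, was 5394 to 6928 in males at 28 °C and 1785 to 3750 at 18 °C, and 2685 to 4825 in females at 28 °C and 1204 to 1475 at 18 °C. Much of that sum was the amylase gene Amy-p, at 3314 to 4623 and 474 to 967 CPM in males and 1557 to 2874 and 174 to 294 CPM in females. The part of these tissues in the changes of the 5 genes was not tested.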

How the data were processed

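RNA-seq was measured in 23 libraries of pooled whole flies. The authors filtered reads with SOAPnuke, predicted transcripts with HISAT and StringTie, compared them with Cuffcompare, aligned reads with Bowtie2 and estimated expected counts per gene with RSEM. These deposited expected counts are not normalized. The submitters' processing notes name the dm6 build, and tool versions are not given in the sources used here. Per the labels each library is a separate pool, and p-values measure the spread between these libraries.

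Expected counts were rounded for the tests, and a feature entered them if no library had it under 0.5 CPM, which left 9698 of 11152. R 4.3.3 with edgeR 4.0.16 (TMM, quasi-likelihood test, means of 6 groups over all 23 libraries, Benjamini-Hochberg adjustment over 9698 features, threshold 0.01) gave the changes. The SE is the absolute log2 change over the square root of the F statistic. DESeq2 1.42.0, limma 3.58.1, Python 3.11.15, numpy 2.4.6, pandas 2.3.3 and matplotlib 3.10.9 were also used. On simulated counts for females at 28 against 18 °C (9698 genes), edgeR recovered 179 of 200 changes of 2-fold with 0 false calls, and DESeq2 recovered 186 with 6 false calls. Apart from these changes, each simulated gene had the same mean in all groups, so scaling between unlike groups was not probed. The common biological coefficient of variation was 0.141. Library totals lay between 17727137 and 23194619. Likeness used log2(CPM + 1).

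The members and lists were chosen with earlier results of these data known. Named genes were the members, the pathway genes of the lists and, for Gnmt and CG3999, the 5 closest features. No sequences were analysed here. Alternatives were DESeq2, library totals, 2 other filters, a replicate block, a threshold of 0.05, only the groups compared, each library left out and each library as TMM reference.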

Additional observations from a re-analysis of the deposited data

Results flagged for a closer look

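Single libraries stood apart in 9 of the 170 groups of 4 libraries examined with Dixon's test (critical value 0.829), and chance flags about 1 in 20 groups. Gnmt was highest in male replicate 3 at 24 °C (206 CPM), as were Nmdmc (46.0 CPM) and SamDC (46.6 CPM). Sam-S was highest in female replicate 3 at 18 °C (560 CPM). Sardh was highest in female replicate 2 at 24 °C (4.09 CPM), and CG10623 in male replicate 4 at 18 °C (58.8 CPM). Nmdmc (14.8 CPM) and Odc2 (2.74 CPM) were lowest in female replicate 4 at 18 °C. CG8665 was lowest in female replicate 1 at 28 °C (31.6 CPM).

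Gnmt and CG3999 were left out of the 34 pathway genes here. Among the rest, the change between 18 and 28 °C differed between the sexes by edgeR's interaction test for 12 genes. Among all features tested, the male change was called above the female change for 6.11% and below it for 13.8%. On the log2 scale the male change exceeded the female change for Shmt (1.51, adjusted p = 0.00189), Ahcy (1.36, adjusted p = 7.92e-06), CG11899 (1.11, adjusted p = 0.00358), Cbs (1.01, adjusted p = 2.99e-06), CG6287 (0.95, adjusted p = 3.74e-05), Eip55E (0.93, adjusted p = 7.92e-06) and Sam-S (0.63, adjusted p = 0.000222). The male change was below the female change for CG10621 (-1.57, adjusted p = 0.000908), CG7560 (-1.29, adjusted p = 0.00721), Odc1 (-1.20, adjusted p = 0.00294), CG6415 (-1.05, adjusted p = 0.00563) and ppl (-0.77, adjusted p = 0.00158).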

How the results depend on the processing

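Of the counts of called genes among the 5, those of 8 comparisons stayed within 1.5 times under every alternative run. For males at 24 against 18 °C the count of 1 was Gnmt, whose values were used in choosing the genes, so its shifts are a description. This count became 0 when only the groups compared were fitted. It was 0 to 1 with 1 library left out, 0 without male replicates 1, 3 or 4 at 18 °C or replicate 3 at 24 °C. For males at 28 against 24 °C the count of 1 was CG3999, to which the same applies. That count became 3 with DESeq2, 2 with library totals, 2 with the replicate block and 4 at a threshold of 0.05. It was 4 with the TMM reference that called most and 1 to 3 with 1 library left out. It was 2 without male replicate 1 and female replicate 4 at 28 °C together, an alternative chosen after seeing the data. Reversed signs were those of Sam-S in females at 24 against 18 °C, -0.00 in the main result but -0.117 to 0.013 with 1 library left out (positive without female replicate 3 at 18 °C) and 0.022 with 1 TMM reference, and of CG6415 in males at 24 against 18 °C, 0.14 but -0.019 to 0.238 with 1 library left out (negative without male replicate 3 at 24 °C). None of these changes was called, and the cause was not tested.

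The replicate block moved only that count among the counts. Replicate numbers were shared between groups without a stated link, and the deviations of same-numbered libraries correlated at a median of 0.0869 (55 pairs, -0.428 to 0.633), with 9 of 23 libraries closest to a library of their own number. The calls of SamDC and CG10623 in females at 28 against 18 °C were lost with DESeq2 and library totals, and those of CG11134 in females and SpdS in males with library totals. The sex differences of CG7560, Odc1 and ppl were each lost in 6 or more alternatives. Gnmt in females at 18 °C rested on 15 to 26 counts per library, which limits its precision.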
